A study of Mus musculus with 6 samples.

Results

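Transcripts of 10 genes of major histocompatibility complex (MHC) class I and class II antigen presentation were compared between the Lower-SP and Upper-SP fractions of mouse hematopoietic stem cells. The genes are H2-K1, H2-D1, B2m, Tap1, Tap2, Tapbp, Psmb8, Psmb9, H2-Ab1 and Cd74, chosen for their roles. Every probe set with 1 of these as its single annotated symbol was taken, which gave 29 of the 45037 probe sets on the array. The marrow donors were male C57Bl/6 mice (CD45.1), 10 weeks old. Their Lineage-, Sca-1+, c-Kit+ cells were divided by position within the side population, which is defined by efflux of a DNA-binding dye, into a lower fraction (Lower-SP) and an upper one (Upper-SP). There was no treatment or genetic alteration, and both fractions share strain, sex, age and surface gate. Each fraction came from 3 pools of mice sorted on separate days and was measured on 3 arrays after repeated rounds of amplification, so that the number of arrays limits the precision. The RNA was that of a sorted population, in which fewer cells expressing a gene and less transcript per cell cannot be told apart.

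Class I molecules display peptides of the cell's own proteins on nearly all nucleated cells. A heavy chain, encoded by H2-K1 or H2-D1 in this strain, pairs with beta-2 microglobulin (B2m), and peptides cut by the proteasome are pumped into the endoplasmic reticulum by the TAP1-TAP2 transporter and loaded with the help of tapasin (Tapbp). Psmb8 and Psmb9 encode catalytic subunits of the immunoproteasome, the interferon-inducible form of the proteasome. Class II molecules, here represented by the beta chain gene H2-Ab1 and the invariant chain gene Cd74, present endocytosed proteins and are best known from B cells, dendritic cells and macrophages.

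Sequences upstream of 4 of the class I pathway genes are shown because they hold matches to short elements known from class I promoters. A match is a description of the letters and not a measured binding site. Each is the 250 bases before a gene start in RefSeq (build GRCm38.p6), 5′ to 3′ on the gene's strand. H2-K1 lies at chr17:34000334-34000583 on the minus strand (the more downstream of its annotated starts), H2-D1 at chr17:35262844-35263093 on the plus strand, B2m at chr2:122147437-122147686 on the plus strand and Tap1 at chr17:34187306-34187555 on the plus strand. Capitals mark matches, on either strand, to GGGATTCCC (the core of the NF-kappa-B element of class I genes), GTTTCACTT (part of their interferon element), GAAANNGAA (part of an interferon-stimulated response element), TGACG (the core of the X2 box) and CCAAT (the Y box).
H2-K1: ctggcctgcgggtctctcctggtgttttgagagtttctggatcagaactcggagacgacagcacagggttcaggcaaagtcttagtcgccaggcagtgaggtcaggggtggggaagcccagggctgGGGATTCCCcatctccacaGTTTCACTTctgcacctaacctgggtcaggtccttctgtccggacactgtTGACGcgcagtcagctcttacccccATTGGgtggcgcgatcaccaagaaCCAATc
H2-D1: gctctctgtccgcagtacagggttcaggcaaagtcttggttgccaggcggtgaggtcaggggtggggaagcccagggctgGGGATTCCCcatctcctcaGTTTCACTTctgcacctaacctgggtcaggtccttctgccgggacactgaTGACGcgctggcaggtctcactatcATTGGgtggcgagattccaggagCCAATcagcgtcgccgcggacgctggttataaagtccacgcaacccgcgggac
B2m: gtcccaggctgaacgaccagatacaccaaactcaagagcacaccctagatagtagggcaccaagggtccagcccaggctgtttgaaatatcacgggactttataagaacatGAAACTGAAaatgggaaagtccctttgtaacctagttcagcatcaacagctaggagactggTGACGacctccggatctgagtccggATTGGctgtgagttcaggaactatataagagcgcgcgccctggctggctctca
Tap1: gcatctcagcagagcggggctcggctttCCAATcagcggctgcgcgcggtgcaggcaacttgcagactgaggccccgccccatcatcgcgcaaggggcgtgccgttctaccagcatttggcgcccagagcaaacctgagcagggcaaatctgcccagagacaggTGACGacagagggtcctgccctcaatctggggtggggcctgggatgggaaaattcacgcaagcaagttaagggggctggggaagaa

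The letters GGGATTCCC and GTTTCACTT were each found in H2-K1 and H2-D1 alone among the 7 genes searched (B2m, H2-D1, H2-K1, Psmb8, Psmb9, Tap1 and Tapbp). Other spellings of the NF-kappa-B and interferon elements were not counted, so their absence from the remaining windows is not shown. Of all 32851 RefSeq windows of this length, 0.301% held GGGATTCCC and 0.338% GTTTCACTT. In H2-K1 they start 124 and 105 bases before the gene start, and in H2-D1 170 and 151 bases before it. The windows of these 2 genes had 88.7% identical bases over 203 aligned positions. GAAANNGAA was found in B2m (7.13% of all windows). TGACG was found in B2m, H2-D1, H2-K1, Psmb9 and Tap1 (17.8%), and CCAAT in these 5 and Tapbp (33.8%). No match overlaps another in the printed windows. Tap1 and Psmb9 lie head to head with 225 bases between their starts, so that the Tap1 window also holds that whole stretch for Psmb9. The TGACG match of both genes is the same site, and so is their CCAAT match.

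Of the 29 probe sets, 21 reached the level for testing (log2 above 4, on 3 arrays or more), and all 10 genes had at least 1 such probe set. The 8 others were 4 of H2-D1, 3 of Tap1 and 1 of H2-Ab1, at or near background. All values are log2 expression from the authors' GCRMA summary, and a difference is the Lower-SP mean less the Upper-SP mean. Plots give group means ± SD (n = 3). Every adjusted p comes from limma, over all 19613 tested probe sets. Levels of different probe sets are not set against each other, since each has its own binding strength. A gene is described by its brightest tested probe set, and its other probe sets are given beside it.

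At these probe sets 6 of the 10 genes were lower in Lower-SP and 0 were higher (at an unadjusted p under 0.05, 7 and 0). Of all 9460 tested genes 20.7% were lower and 7.05% higher. Among the 3020 tested genes at least as bright as the dimmest of the 10, 28.5% were lower. The lowered genes are both class I heavy chains (H2-K1 and H2-D1), Tap1, Tapbp, Psmb9 and the class II beta chain H2-Ab1. The median difference of the 10 was -0.57, beside -0.24 for all tested genes. In 8 of the 10 every Lower-SP array lay below every Upper-SP array, as it did in 32.3% of all tested genes. By probe set, 10 of 21 were lower and 0 higher, against 17.5% and 10.7% of all tested probe sets, and 13 of 21 had every Lower-SP array below every Upper-SP array, against 27.9%.

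The balance of all genes depended on the scaling of the arrays, and the counts are to be read beside it. Of the changed genes 25.4% were higher with the deposited scaling and 42.5% with cyclic loess, which moved the median of all genes to -0.09 and that of the 10 genes to -0.37. The distance between both medians was -0.33 with the deposited scaling, -0.25 with quantile normalization and -0.27 with cyclic loess. It shrank to -0.03 without probe sets whose names end in _x_at or _s_at (probes that can bind other genes), where H2-D1, Tap1, Tapbp and Psmb9 passed, H2-Ab1 did not and H2-K1 had no probe set left. With cyclic loess and with quantile normalization H2-K1, H2-D1, Tap1 and H2-Ab1 remained lower, and Tapbp and Psmb9 did not pass. The count also depended on single arrays: with Upper-SP replicate 1 removed, 2 genes passed (H2-K1 and Tap1). Removing Upper-SP replicate 2 or Lower-SP replicate 2 left 3 genes (H2-K1, Tap1 and H2-Ab1 in both cases). Of all tested genes 4.43%, 8.30% and 10.4% were lower in these 3 fits, beside 20.7% with all arrays.

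**Figure D1:**
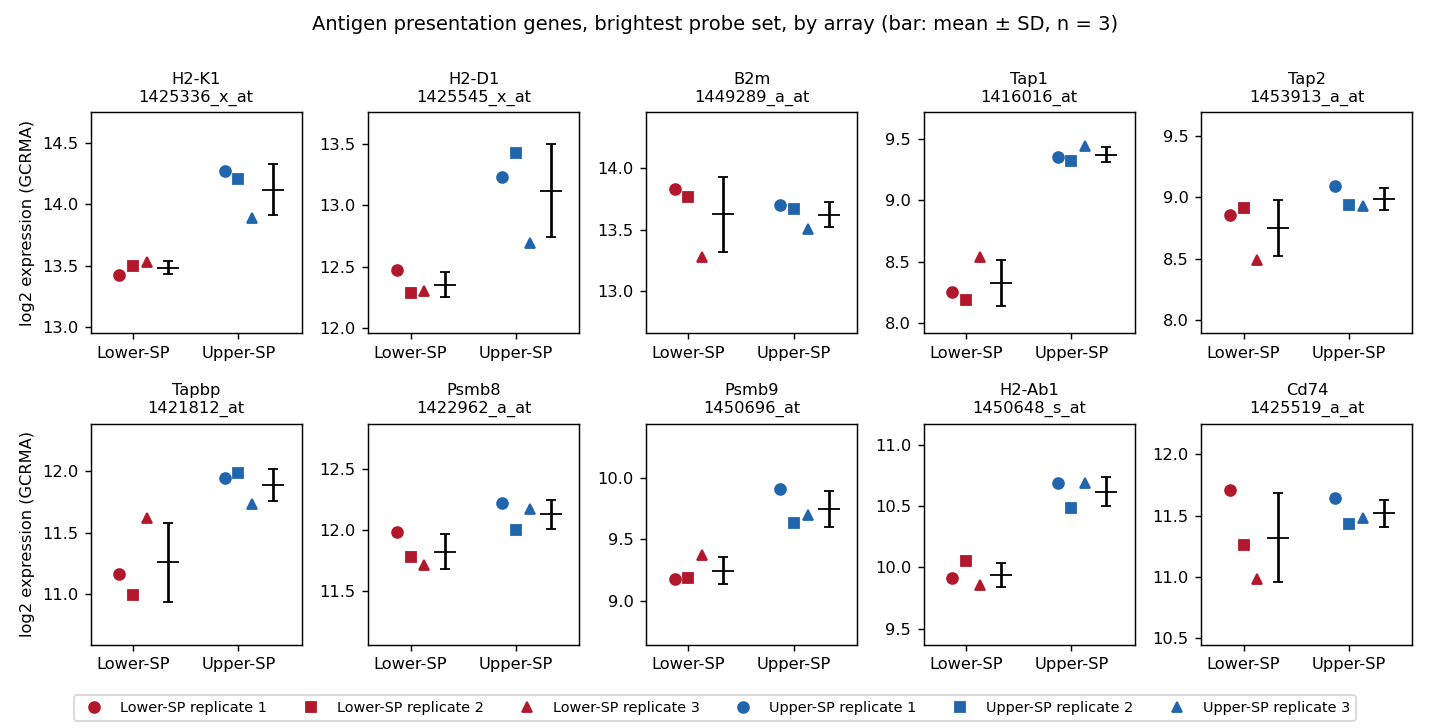
Log2 expression of each of the 10 genes at its brightest tested probe set on the 3 Lower-SP arrays (red) and the 3 Upper-SP arrays (blue), with symbols for replicates 1 to 3 and the mean ± SD beside them; every panel spans the same number of log2 units. The groups are apart for 8 genes and overlap for B2m and Cd74.

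The class I heavy chains were lower in Lower-SP at most of their probe sets. In Lower-SP, H2-K1 read 13.43, 13.50 and 13.53, and in Upper-SP 14.27, 14.21 and 13.89. The Lower-SP values lay close together (SD 0.054) and below each Upper-SP value. The difference was -0.64 (SE 0.11, 1.55-fold, adjusted p = 0.00752), and it passed in 16 of 17 alternative settings. Further probe sets of H2-K1 fell by 0.65 (adjusted p = 0.025) and 0.73 (0.022), and the dimmest differed by -0.34 without passing.

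H2-D1 read 12.47, 12.29 and 12.30 in Lower-SP against 13.23, 13.43 and 12.70 in Upper-SP. The groups did not overlap, with Upper-SP replicate 3 nearest to Lower-SP. The difference was -0.77 (SE 0.18, 1.70-fold, adjusted p = 0.0195) and passed in 12 of 17 settings. Of its other tested probe sets 2 fell, by 0.72 and 0.57, and 2 differed by -0.54 and -0.26 without passing. The probe set at -0.57 read 11.88, 11.80 and 12.16 against 12.50, 12.62 and 12.42. It is the one tested H2-D1 probe set whose name does not end in _x_at, the suffix of probes that can bind other genes. All H2-K1 probe sets carry that suffix, and class I heavy chains are close copies of each other, so that signal from other class I genes cannot be told apart from theirs.

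B2m, the light chain shared by these heavy chains, did not pass at either of its probe sets. It read 13.84, 13.76 and 13.28 in Lower-SP and 13.70, 13.66 and 13.51 in Upper-SP, and the groups overlapped. The difference was 0.00 (95% interval -0.35 to 0.35, adjusted p = 0.996), and it turned negative without Lower-SP replicate 1 or 2 (-0.10 and -0.07). Another B2m probe set differed by -0.47 (95% interval -0.95 to 0.01, adjusted p = 0.123). With the brightest B2m probe set, the change of H2-K1 minus that of B2m was -0.64 and that of H2-D1 minus B2m -0.77. In both cases the arrays' ratios did not overlap between fractions. The exact permutation test of each (two-sided, p = 0.10) gave the smallest value that 3 against 3 arrays allow, and 0.117 after Benjamini-Hochberg adjustment over the 7 such pairs computed. It could not fall under 0.05 and so decides nothing about an unequal change. These 7 pairs were not among the planned comparisons, and how often other gene pairs do not overlap was not computed. The larger fall of the heavy chains rests on that B2m probe set alone. The other one read 12.82, 13.20 and 12.45 in Lower-SP against 13.26, 13.58 and 13.05 in Upper-SP. Its difference of -0.47 lies nearer to those of the heavy chains, and no ratios were computed with it.

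Among the loading genes, Tap1 showed the largest difference of the 10. Tap1, a subunit of the peptide transporter, read 8.25, 8.19 and 8.54 in Lower-SP and 9.36, 9.32 and 9.44 in Upper-SP. The Upper-SP arrays lay close together, and all Lower-SP arrays lay well below them. It fell by 1.04 (SE 0.17, 2.06-fold, adjusted p = 0.00564) and passed in 17 of 18 alternative settings, the exception being the fit without Lower-SP replicates 1 and 2 (adjusted p = 0.053; over the alternatives 0.0002 to 0.053).

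Tap2, the other transporter subunit, read 8.85, 8.91 and 8.49 against 9.10, 8.94 and 8.93. The highest Lower-SP value (8.91) lay just below the lowest of Upper-SP (8.93). The difference of -0.24 did not pass (95% interval -0.65 to 0.17, adjusted p = 0.343). The change of Tap1 minus that of Tap2 was -0.81, with no overlap between fractions (exact permutation p = 0.10, the smallest possible, adjusted 0.117).

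Tapbp, the gene of tapasin, which bridges the transporter and the class I heavy chain, read 11.17, 10.99 and 11.62 against 11.94, 11.99 and 11.74. Lower-SP replicate 3 was nearest to Upper-SP. The difference was -0.63 (SE 0.17, 1.55-fold, adjusted p = 0.0312). It passed in 8 of 18 settings, and without Lower-SP replicates 1 and 2 it was -0.27. A dim Tapbp probe set was scattered, with 3.67, 4.08 and 5.59 against 6.09, 6.39 and 4.001 (difference -1.05, adjusted p = 0.30). With its tested probe sets averaged, a setting outside these 18, Tapbp did not pass.

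The immunoproteasome subunits differed less. Psmb9 read 9.18, 9.19 and 9.37 in Lower-SP and 9.91, 9.63 and 9.70 in Upper-SP. It fell by 0.50 (SE 0.15, 1.42-fold, adjusted p = 0.0420), a call near the threshold that held in 6 of 18 settings and was lost with each other scaling.

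Psmb8 read 11.98, 11.78 and 11.71 against 12.22, 11.997 and 12.17. The groups were apart by a narrow margin, with Lower-SP replicate 1 next to Upper-SP replicate 2. The difference of -0.31 did not pass (95% interval -0.58 to -0.03 before adjustment, adjusted p = 0.0897). A dim Psmb8 probe set pointed the other way, at 0.29 (adjusted p = 0.42). The change of Psmb9 minus that of Psmb8 was -0.20, with overlapping ratios (exact permutation p = 0.30).

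The class II beta chain was lower and the invariant chain was not called. H2-Ab1 read 9.91, 10.05 and 9.86 in Lower-SP and 10.69, 10.48 and 10.69 in Upper-SP, with a clear gap between the groups. It fell by 0.68 (SE 0.13, 1.601-fold, adjusted p = 0.0103) and passed in 15 of 17 settings. This probe set has the suffix _s_at, so that signal from other transcripts cannot be told apart, and these 17 settings do not include the one without such probe sets, where H2-Ab1 was read through a dimmer probe set. That probe set read between 5.49 and 5.56 on 5 arrays and 6.47 on Upper-SP replicate 1, and did not pass (-0.29). The 17 also leave out the setting with a gene's tested probe sets averaged, where H2-Ab1 did not pass.

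Cd74, whose product holds the class II peptide groove closed until the endosome, read 11.71, 11.26 and 10.99 against 11.64, 11.43 and 11.48. Lower-SP replicate 1 was the highest of all 6 arrays and Lower-SP replicate 3 the lowest. The difference was -0.20 (95% interval -0.63 to 0.23, adjusted p = 0.455). The change of H2-Ab1 minus that of Cd74 was -0.48, with no overlap between fractions (exact permutation p = 0.10, the smallest possible, adjusted 0.117).

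**Figure D2:**
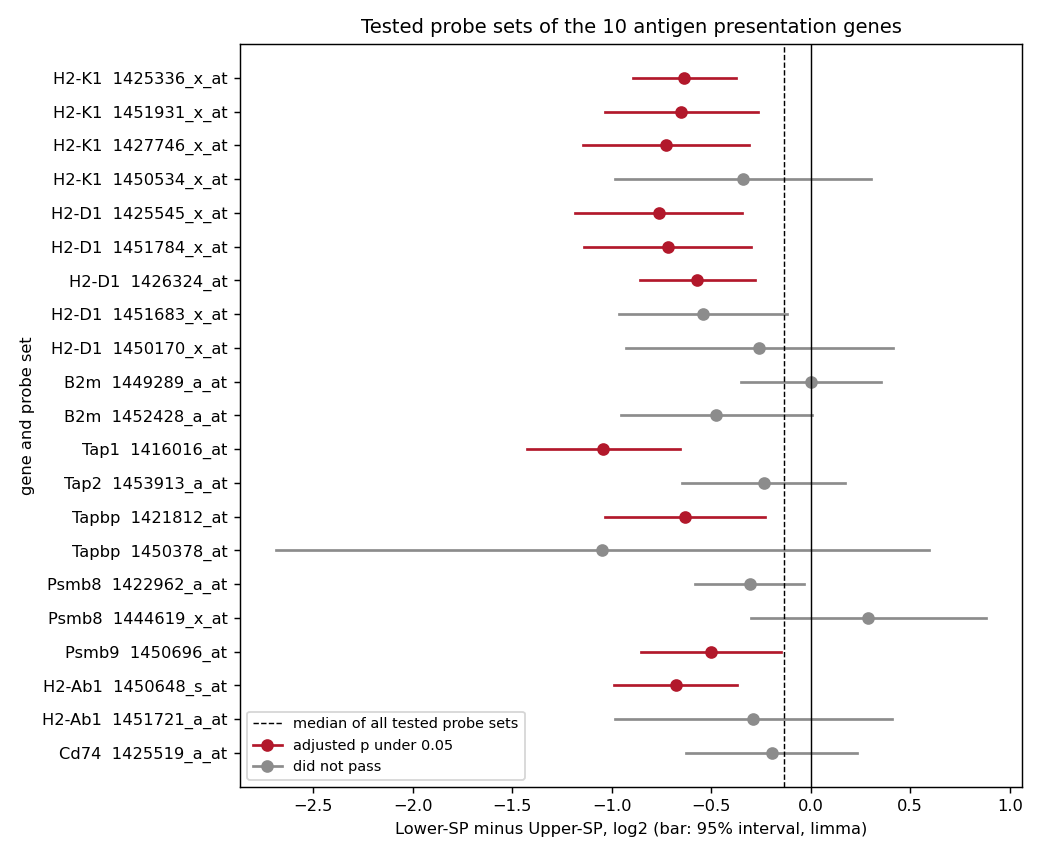
Difference between Lower-SP and Upper-SP in log2 units (horizontal) with its 95% interval for the 21 tested probe sets of the 10 genes (vertical), red where the adjusted p was under 0.05; the dashed line is the median of all tested probe sets. Of the 21, 19 lie below 0 and 10 passed, all of them lower in Lower-SP.

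Other genes of the pathway were read from lists that hold 68 genes besides these 10. A single-symbol probe set was annotated for 58 of them and 48 were tested, of which 16 were lower and 0 higher (22 and 1 at an unadjusted p under 0.05), a share of 33.3% beside the 20.7% of all tested genes. Their median was -0.39. The count fell to 4 when Upper-SP replicate 1 was removed, to 8 for Upper-SP replicate 2 and to 10 for Lower-SP replicate 2. The lower share of all tested genes was then 4.43%, 8.30% and 10.4%. With quantile normalization, median centring or cyclic loess the count was 11, 13 and 11, with 1 pathway gene higher in each. Of all tested genes 16.4%, 17.4% and 13.8% were lower there.

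Of 3 tested class I-like chains 1 was lower, too few to set beside the 20.7% of all tested genes. Cd1d1, which presents lipids to natural killer T cells, read 10.59, 10.70 and 10.61 in Lower-SP and 11.28, 11.61 and 11.73 in Upper-SP. It fell by 0.91 (SE 0.14, adjusted p = 0.00562), and by 1.89 at another probe set. H2-M3, which presents formylated peptides, differed by -0.95 and did not pass (adjusted p = 0.054). H2-T23 and Psme2 share their probe sets with other symbols and were not analysed here.

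Of 7 tested loading genes 4 were lower (57.1%, beside 20.7% of all tested genes and 28.5% of the bright ones). Erap1, the aminopeptidase that trims peptides in the endoplasmic reticulum, fell by 1.26 (SE 0.28), and the tapasin relative Tapbpl by 0.77 (SE 0.23). The translocon subunit gene Sec61b fell by 0.39, and the chaperone gene Calr by 0.44 (adjusted p = 0.0496, over the alternatives 0.0008 to 0.39). Tapbpl, Sec61b and Calr did not pass with any of the 3 other scalings. The chaperone genes Pdia3 (0.17) and Canx (0.15) did not pass, and the direction of Canx turned when its probe sets were averaged (-0.13).

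Of the proteasome genes, Psme1, a subunit of the interferon-inducible activator, fell by 0.59 (SE 0.11, adjusted p = 0.00974). It read 12.09, 12.09 and 12.14 in Lower-SP and 12.81, 12.79 and 12.49 in Upper-SP. The immunoproteasome subunit Psmb10 differed by -0.18 (0.02 with cyclic loess) without passing. The constitutive subunits that the immunoproteasome replaces differed by -0.56 (Psmb5), -0.30 (Psmb6) and -0.03 (Psmb7, 0.06 with centring and with cyclic loess), and none of these 3 passed. A difference between the forms of the proteasome was not tested.

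Of 10 tested class II and endosomal genes 4 were lower (40%, beside 20.7% of all tested genes and 28.5% of the bright ones). The protease genes Ctss (-0.87, SE 0.12) and Ctsl (-0.68, SE 0.13), whose products degrade the invariant chain, passed with every scaling. H2-DMa (-0.79) and H2-Oa (-0.96), chains of the molecules that control class II peptide exchange, did not pass with cyclic loess or quantile normalization. H2-Aa, the gene of the alpha chain that pairs with H2-Ab1, read 11.89, 11.89 and 11.26 against 12.08, 11.87 and 11.80 and differed by -0.24 (95% interval -0.67 to 0.20, adjusted p = 0.370), with -0.08, -0.70 and 0.52 at its other probe sets. H2-Eb1, the beta chain of the other class II molecule, differed by -0.17 (adjusted p = 0.42), or by 0.05 with cyclic loess and 0.01 with quantile normalization.

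Of 19 tested regulators 5 were lower, a share of 26.3% beside 20.7% of all tested genes and 28.5% of the bright ones. Among the 5 is Jak1, whose probe sets disagree in direction. Nlrc5, the transactivator of class I genes, read 8.45, 8.49 and 8.67 in Lower-SP and 9.35, 9.25 and 9.16 in Upper-SP. It fell by 0.72 (SE 0.16, 1.65-fold, adjusted p = 0.0145), with no overlap, and passed in 15 of 19 settings. Ciita, the transactivator of class II genes, was too dim to test at any of its probe sets (highest value 3.56).

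The RFX complex binds the X box of class I and class II promoters and is the platform for both transactivators. Its subunit genes Rfx5 (-0.71, SE 0.16) and Rfxank (-1.43, SE 0.28) fell, while Rfxap differed by -0.10 without passing. A second Rfxank probe set differed by -0.19 and did not pass. Rfx5 read 8.96, 8.88 and 9.17 against 9.78, 9.82 and 9.53, with a gap between the fractions.

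Rela, the NF-kappa-B subunit p65, fell by 0.76 (adjusted p = 0.00751) and passed in all 19 alternative settings. Irf1, an interferon-induced factor of class I promoters, read 9.53, 9.83 and 10.45 against 10.64, 10.38 and 10.37, overlapped and did not pass (-0.52, adjusted p = 0.133). The interferon-gamma receptor gene Ifngr1 did not pass (0.00, 95% interval -0.33 to 0.33; 0.21 with cyclic loess, which did not pass either). The kinase gene Jak1 fell by 1.11 and 0.78 at 2 probe sets and rose by 1.38 at another, so that it has no single direction here.

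Of the costimulatory genes 2 were bright enough to test. Cd86, a ligand of CD28 on T cells, read 7.96, 7.97 and 8.37 in Lower-SP and 9.54, 9.25 and 9.58 in Upper-SP. It fell by 1.36 (SE 0.19, 2.56-fold, adjusted p = 0.00406) and passed in all 19 alternative settings. Cd274, the gene of PD-L1, differed by -0.02 without passing.

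**Figure D3:**
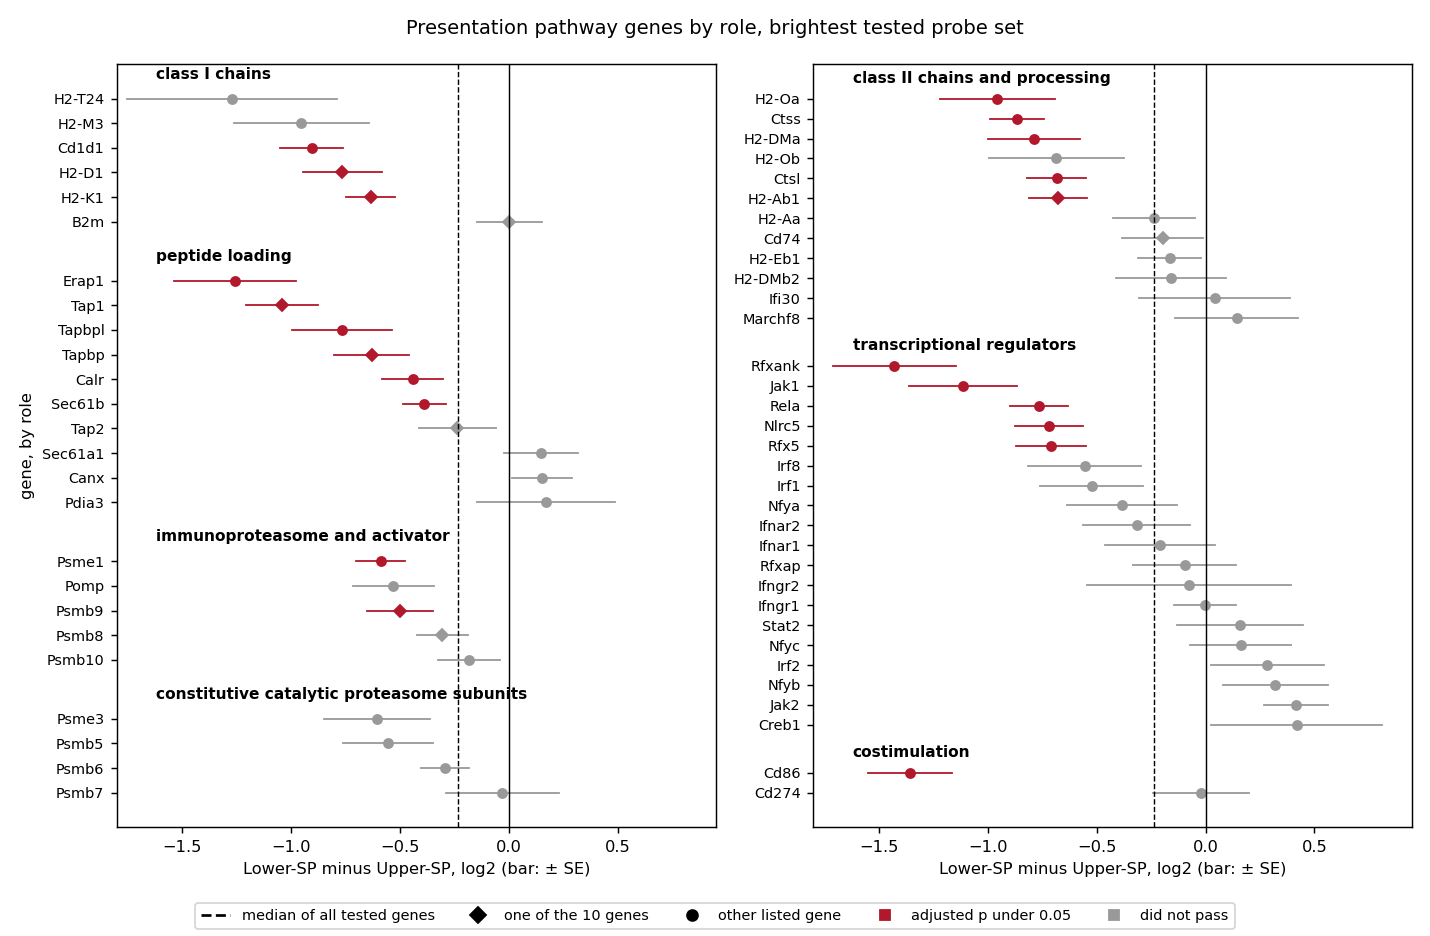
Difference between Lower-SP and Upper-SP in log2 units (horizontal, ± SE) for each tested gene of the presentation pathway (vertical), grouped by role; diamonds are the 10 genes, red marks an adjusted p under 0.05 and the dashed line the median of all tested genes. The called genes all lie left of 0, and Jak1 has a further probe set, not plotted, that rose.

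Cells known for class II were looked for through their defining markers. Of 9 annotated mature B cell markers 2 were tested and 0 called in limma (0 at an unadjusted p under 0.05). Cd79b, a chain of the B cell receptor complex, was well expressed, at 7.64, 7.41 and 6.29 in Lower-SP and 7.61, 7.68 and 7.15 in Upper-SP (difference -0.37, adjusted p = 0.480). Ms4a1, the CD20 gene, differed by 0.42 without passing, while Cd79a (2.48 to 2.82) and Pax5 (1.98 to 2.06) were near background on all 6 arrays. Cd22, Blk and Vpreb3 were near background too. Cr2, too dim to test, read 3.14, 3.94 and 4.98 in Lower-SP against 2.49, 2.82 and 3.38. Fcer2a, not tested either, read 3.985, 4.02 and 5.225 against 3.92, 3.96 and 3.999. The mean of the B cell list, most of it dim genes, ran from 3.32 to 3.53 in Lower-SP and from 3.18 to 3.30 in Upper-SP.

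Of 12 dendritic cell and macrophage markers 4 were tested. Csf1r, a macrophage growth factor receptor gene, was higher (1.06, adjusted p = 0.0230), and the other 3 were negative without passing (Mrc1 -1.05, C1qa -1.03 and C1qb -0.18), with a list median of -0.60. Cd68, under the level for testing, read 3.02, 2.53 and 2.78 against 4.76, 4.74 and 3.73, with every Lower-SP array below every Upper-SP array. The list's mean ran from 3.26 to 4.07 in Lower-SP and from 3.60 to 4.16 in Upper-SP, and Itgax, the gene of CD11c, read 1.95 to 2.02. The macrophage gene C1qa was uneven between arrays (6.49, 5.46 and 3.25 against 6.74, 7.11 and 4.46). The part of B cell and macrophage transcripts in the results was not tested. T and NK cell and erythroid markers (8 and 4 genes) had 0 tested members, whereas 13 of 13 stem cell markers were tested. Of these 2 were lower, Kit (-0.92, adjusted p = 0.0141) and Abcg2 (-1.04, 0.00473), and Ctnnal1 was higher (1.44, 0.0246).

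Part of the neutrophil markers differed between the fractions. Of 10 annotated markers 8 were tested. In Lower-SP 4 were higher (S100a8, S100a9, Lcn2 and Chil3) and 1 was lower (Prtn3, -0.60, adjusted p = 0.00666). Of all tested genes 7.05% were higher and 20.7% lower. Ngp, Camp and Ltf had positive differences without passing. The list mean was 8.95, 8.45 and 5.77 on the Lower-SP arrays against 5.47, 5.70 and 4.66. The mean of the 10 presentation genes was 11.08, 10.99 and 10.97 against 11.61, 11.51 and 11.42, and without Cd74, B2m and Psmb8 it was 10.47, 10.45 and 10.53 against 11.21, 11.14 and 11.01. Cd74, B2m and Psmb8 did not pass and were left out after their values were seen, which widens the gap by construction. Tap2, which did not pass either, was kept. Lower-SP replicate 3 was the lowest array by the first mean and the highest Lower-SP array by the second. Its neutrophil list mean (5.77) lay just above the highest of Upper-SP (5.70). On that array S100a8, S100a9, Lcn2 and Chil3 lay above each Upper-SP array. Ngp, Camp and Ltf lay below Upper-SP replicates 1 and 2. The part of neutrophil transcripts in the results was not tested. Plasma cell markers had 4 of 8 tested, with 1 lower and 0 higher (25% lower, beside 20.7% of all tested genes). The lower gene was Igha (9.40, 8.99 and 4.70 in Lower-SP against 12.4, 12.6 and 11.3). Jchain (-1.82), Xbp1 (-0.28) and Sdc1 (-0.07) did not pass, and Mzb1, Tnfrsf17, Derl3 and Pou2af1 were near background. The list mean was 4.75 to 5.56 against 5.96 to 6.17. When both of the Lower-SP arrays rich in neutrophil transcripts were dropped (replicates 1 and 2), all 10 genes had negative differences (median -0.51, beside -0.17 for all genes). A limma fit here rests on a single Lower-SP array and assumes that it varies like the others. Dropping these arrays was therefore not a test of the part of neutrophil transcripts.

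**Figure D4:**
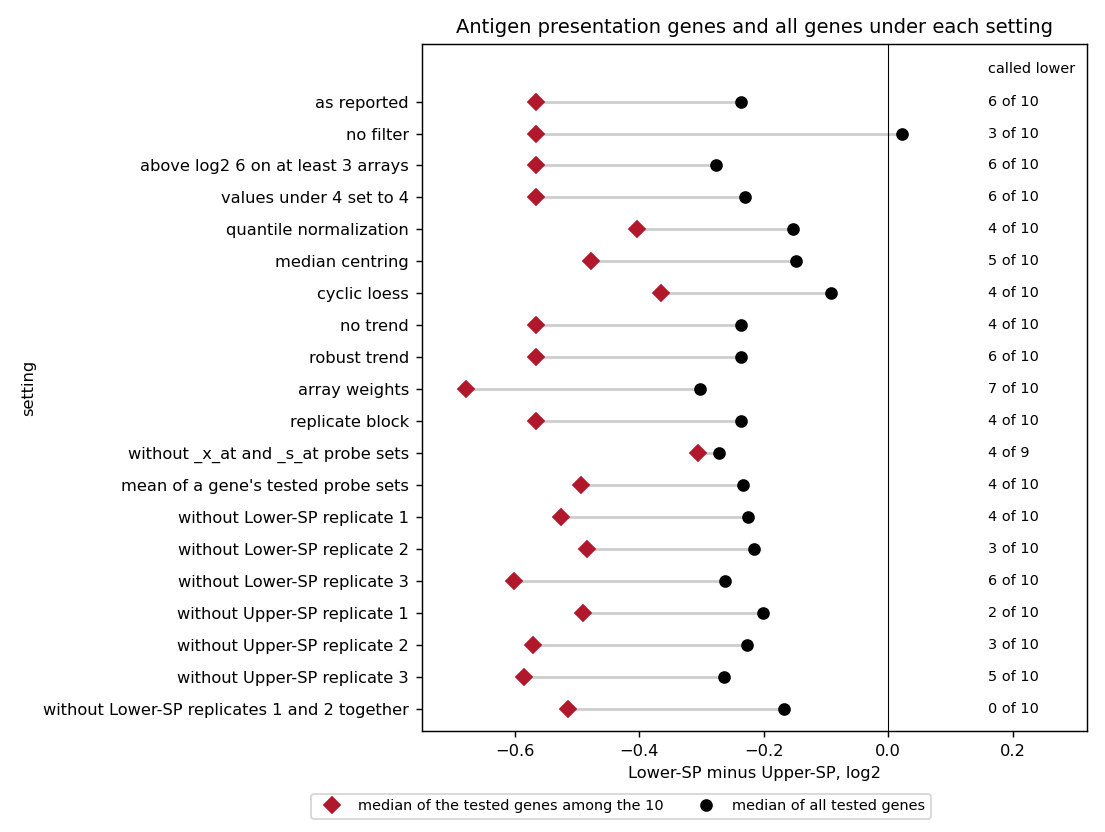
Median difference between Lower-SP and Upper-SP in log2 units (horizontal) of the tested genes among the 10 (diamonds) and of all tested genes (circles) under each setting (vertical), with the number of the 10 called lower at the right. The diamonds lie left of the circles in each setting, least so (-0.31 beside -0.27) without _x_at and _s_at probe sets, where H2-K1 is not represented; the calls run from 0 to 7.

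Genes with the most similar pattern were looked for by Pearson correlation, over the 6 arrays, with the mean of the 10 genes after each was centred. The highest were Vrk3, Idh3b, Ahcyl1, Uqcrq and Afg3l1 (r = 0.997 to 0.999). Each was lower in Lower-SP by 0.54 to 1.03, without overlap between fractions. Direction and lack of overlap follow from the choice by r, since the mean of the 10 genes is itself lower without overlap. All of these values share the arrays and their scaling. Vrk3, a kinase gene, read 8.03, 7.86 and 7.88 against 8.87, 8.71 and 8.58. Idh3b and Uqcrq encode mitochondrial enzymes of the citric acid cycle and the respiratory chain. Among the 10 genes themselves, the pairwise r over the arrays ran from -0.37 to 0.95, and with the group means removed from -0.95 to 0.93.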

How the data were processed

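RNA of sorted Lower-SP and Upper-SP cells (3 arrays each) was hybridized, as biotin-labeled RNA, to an Affymetrix mouse array. The deposited log2 values were made by the authors with GCOS 1.0 and GCRMA, which corrects background by probe sequence and normalizes arrays to each other, per the submitters' processing notes; parameters and a genome build are not given in the sources used here. Of 45037 probe sets (64 controls left out) 34945 carried 1 symbol in the array annotation, 932 several and 9160 none. Probe sets above log2 4 on at least 3 arrays were tested (19613) in R 4.3.3 with limma 3.58.1 (lmFit, eBayes with a trend, group alone, two-sided), with Benjamini-Hochberg adjustment over all of them and a threshold of 0.05. No low values were imputed. Each gene was read through the brightest of its tested probe sets that carry 1 symbol. Named are all probe sets of the 10 genes, every passing gene of the pathway lists and a fixed set of others; Jak1's other probe sets, Rfxap, Cd274 and the marker genes named were chosen after their values were seen, as were the promoter motifs, of which longer forms were searched first and matched in the same member genes. The members and lists were chosen with earlier results of these data known. Cd74, B2m and Psmb8 were picked as genes to leave out of a mean after their values were seen. Alternatives were other filters, scalings, variance models, array weights, a replicate block, other probe set choices and each array left out. The series description calls the replicates biological and does not say which arrays of both fractions share a pool of mice. On 19613 simulated probe sets with 200 changed, the fit recovered 17% where the change was log2 1 and 71% where it was log2 2, and 6.38% of calls were unchanged probe sets. In the data 3430 probe sets were called lower and 2090 higher, many more than 200, so these rates need not hold there. Arrays correlated at 0.952 to 0.991 within and 0.911 to 0.938 between fractions.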

Additional observations from a re-analysis of the deposited data

How the results depend on the processing

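As reported, 6 of the 10 genes, 10 of their probe sets and 16 other pathway genes were lower, and 0 of each were higher. The lower counts were 3, 4 and 11 with no filter, 6, 11 and 17 with a filter at log2 6, and 4, 8 and 11 with quantile normalization. They were 4, 7 and 11 with cyclic loess, 4, 5 and 14 with no trend, and 7, 13 and 26 with array weights. Without _x_at and _s_at probe sets they were 4, 4 and 14. The share of all tested genes called lower moved as well. It was 20.7% as reported and, in the order of these settings, 5.12%, 26.9%, 16.4%, 13.8%, 18.2%, 41.9% and 22.3%. With each array left out in turn the counts ran from 2 to 6, 2 to 10 and 4 to 18. The share of all tested genes then ran from 4.43% to 24.4%. Of the other pathway genes 1 was higher with quantile normalization, median centring and cyclic loess, 2 with array weights (with 1 of the 10 genes' probe sets, of Psmb8), and 0 to 1 with an array left out. With no filter more probe sets were tested and with arrays left out fewer samples, both by construction; the other causes were not tested. With the replicate number as a block 4 of the 10 genes, 9 probe sets and 11 other genes were lower (0 higher); same-numbered arrays showed no sign of deviating together (r = -0.05, -0.03 and -0.02), which does not settle whether they share a pool of mice.

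Directions that turned belong to values that did not pass. They were H2-Eb1 (0.005 with quantile normalization, 0.049 with cyclic loess), Ifngr1 (0.170, 0.087 with centring and 0.214), Psmb7 (0.056 with centring, 0.055 with cyclic loess, 0.013 with array weights), Psmb10 (0.024 with cyclic loess), a dim H2-D1 probe set (0.073) and Pdia3 (-0.167) with array weights, and Canx (-0.063 without _x_at and _s_at probe sets, -0.126 with probe sets averaged). Without Lower-SP replicates 1 and 2 the brightest B2m probe set was -0.348 and the dim Tapbp probe set 0.096. With single arrays left out, the brightest B2m probe set ran from -0.104 to 0.176, Ifngr1 from -0.070 to 0.035, Psmb7 from -0.242 to 0.116, the dim H2-Ab1 probe set from -0.464 to 0.025 and Pdia3 from -0.053 to 0.436.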

Other observations

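Of the 10 genes, 7 lie on chromosome 17 between H2-K1 and H2-D1, and 5 of these 7 were lower. Genes of that stretch outside the presentation lists, a set formed after the results were seen, had 14 of 39 tested members lower and 1 higher (35.9% lower, median -0.41), beside 20.7% lower and a median of -0.24 for all tested genes. No test was made of this share.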
